A study of Mus musculus with 31 samples.

Results

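MycOE Cxcl5-/- cells are mouse pancreatic cancer cells in which Cxcl5 was knocked out and Myc was then overexpressed. Grown in 3D culture, they were compared here with Cxcl5-/- cells without the overexpression. Samples were chosen by their labels, which gave 3 MycOE Cxcl5-/- and 2 Cxcl5-/- libraries, 5 of the 31 samples of the series. The methods name the line Panc02, a murine pancreatic adenocarcinoma line, although the labels of these samples number the line differently from sample to sample. All 5 samples share the knockout, which was made with a lentiCRISPRv2 vector carrying a guide against Cxcl5. Myc was subcloned into the retroviral vector pLPCX and delivered to the knockout cells. The cells were grown as spheroids embedded in Matrigel in ordinary culture media. Infected cells were selected with puromycin. The sources used here do not give the species of the Myc insert or the number of clones, and they name no vector control for the Cxcl5-/- libraries, so the added vector and Myc cannot be told apart. Beside them in the same table stood 3 Hif1aOE Cxcl5-/- libraries, whose insert is a stabilised mouse Hif1a mutant in the same vector, and 2 wild-type (WT) libraries, also in 3D culture. The methods speak of biological replicates for the experiments in general, but the sources do not say for these libraries whether they came from separate cultures, so the p-values measure only the spread between them, which may be technical.

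MYC is a transcription factor that binds DNA as a dimer with MAX at the E-box, and the dimer is opposed by the MXD proteins and MNT on the same sites. It is known for raising the genes of ribosome production, nucleotide and amino acid supply, mitochondrial function and the cell cycle. In pancreatic cancer it is linked to growth and to altered metabolism.

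Total counts were 42281281 and 43890492 in Cxcl5-/- and 51639654 to 60438310 in MycOE Cxcl5-/-. Libraries were scaled by TMM, levels are given per 1000000 counts of the scaled library (CPM), and the quasi-likelihood test of edgeR was run on the 28730 genes that passed its filter, over the 10 libraries of the table. A gene was called at an adjusted p below 0.05. Because counts are relative to the library, a change in RNA per cell is not visible, and fewer cells of a type and less RNA per cell cannot be told apart. The WT libraries stood apart, with 43037 and 43048 genes holding a count against 26886 to 31338 in the other libraries. Structural noncoding RNAs took 13.95% and 15.3% of the counts in Cxcl5-/- and 19.5% to 22.1% in MycOE Cxcl5-/-. Of the 11 duct or epithelial markers, Krt8, Krt18, Sox9 and Pdx1 were counted in all 5 libraries while Epcam was at 0 in all 5 and Cdh1 at 0 in all 3 MycOE Cxcl5-/- libraries, and the summed level of the list was 334.9 to 352 CPM in Cxcl5-/- and 303 to 350.4 CPM in MycOE Cxcl5-/-. The 6 endocrine markers were at 0 in all 5 libraries, and the 6 endothelial markers summed to 0.325 to 0.913 CPM in each of them. Of the 9 leukocyte markers, Itgam, Cd3e and Tyrobp were at 0 in all 5 libraries, and the summed level was 5.37 to 5.77 CPM in Cxcl5-/- and 12.03 to 17.8 CPM in MycOE Cxcl5-/-, most of it Lyz2. Their part in the results was not tested. The 9 acinar markers summed to 9.34 to 13.7 CPM in Cxcl5-/-, nearly all Ctrb1, and to 0.296 to 0.413 CPM in MycOE Cxcl5-/-.

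The overexpressed gene was read first. Myc (ENSMUSG00000022346, chromosome 15, 61985391 to 61990374, plus strand, GRCm38) was at 22.3 and 20.02 CPM in Cxcl5-/- and 548, 525 and 397 CPM in MycOE Cxcl5-/-. Every MycOE Cxcl5-/- library lay far above both Cxcl5-/- libraries (edgeR log2 difference 4.54 ± 0.16, adjusted p = 1.93e-08, where ± gives the SE of this and later log2 differences). Raw counts were 1073 and 986 against 25934, 24153 and 22518. These counts do not separate the endogenous gene from the insert. Myc stood at 49.3 and 46.1 CPM in WT, so the overexpressing libraries also exceeded WT (edgeR log2 difference 3.36 ± 0.15, adjusted p = 1.05e-07).

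Cxcl5 (ENSMUSG00000029371, chromosome 5, 90759360 to 90761624, plus strand) encodes the chemokine that was knocked out, and its transcript was still counted in every library. It was at 36.6 and 40.2 CPM in Cxcl5-/- and 49.1, 46.7 and 37.8 CPM in MycOE Cxcl5-/-. The groups overlapped, and the difference did not pass the test (edgeR log2 difference 0.21 ± 0.13, adjusted p = 0.204). Against WT, at 64.2 and 67.7 CPM, the MycOE Cxcl5-/- libraries were lower (edgeR log2 difference -0.57 ± 0.12, adjusted p = 0.00571). A count of the transcript shows neither the edited sequence nor the protein. Hif1a, the oxygen-regulated subunit of HIF-1, was at 144 and 133 CPM in Cxcl5-/- and 241, 271 and 262 CPM in MycOE Cxcl5-/-. It rose with no overlap between the groups (edgeR log2 difference 0.90 ± 0.10, adjusted p = 3.08e-05). In the Hif1aOE Cxcl5-/- libraries Hif1a was at 258, 296 and 243 CPM, which overlaps the MycOE Cxcl5-/- values.

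**Figure D1:**
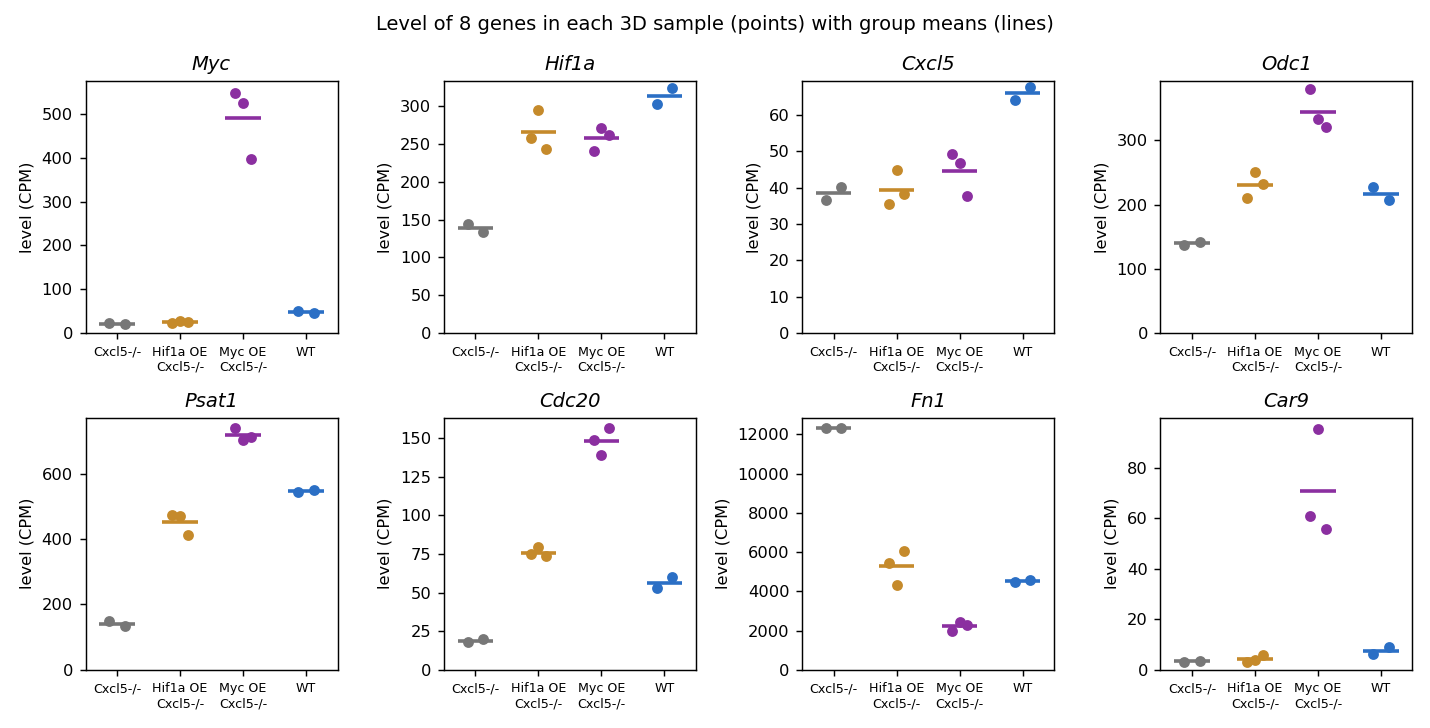
Each panel plots the level of 1 gene in CPM (vertical axis, from 0) in every 3D library (points) by group, and lines mark group means. Myc stands apart only in the 3 MycOE Cxcl5-/- libraries, Cxcl5 overlaps between them and the Cxcl5-/- libraries, and Fn1 is lower in each MycOE Cxcl5-/- library than in any other library shown.

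Across all genes, 6205 were higher in MycOE Cxcl5-/- than in Cxcl5-/- and 5167 were lower, which is 21.6% and 18% of the genes tested. At an unadjusted p under 0.05 the counts were 7499 and 6191. Over all genes tested the median log2 fold change stood at 0.11. With an absolute log2 fold change above 1 as well, 3518 genes were higher and 2848 lower. Scaling weighed on this split, since TMM factors were 1.12 and 1.14 in Cxcl5-/- and 0.857 to 0.939 in MycOE Cxcl5-/-. Scaling by library totals instead moved the log2 fold changes by -0.34 and gave 4271 genes higher and 7482 lower, with a median of -0.11 over all genes and list medians lower by about as much. Of the 6205 genes called higher, 691 had 3 counts or fewer in both Cxcl5-/- libraries, and of the 5167 called lower, 247 had 3 counts or fewer in all 3 MycOE Cxcl5-/- libraries. Of 13042 genes that averaged 100 counts or more over the 5 libraries, 4881 were called higher and 3824 lower. These counts and shares are the background for the counts of each list below. Both directions were called more often among the 13042 genes than among all genes tested. A list of well-counted genes can therefore exceed the shares of all genes tested without standing out.

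**Figure D2:**
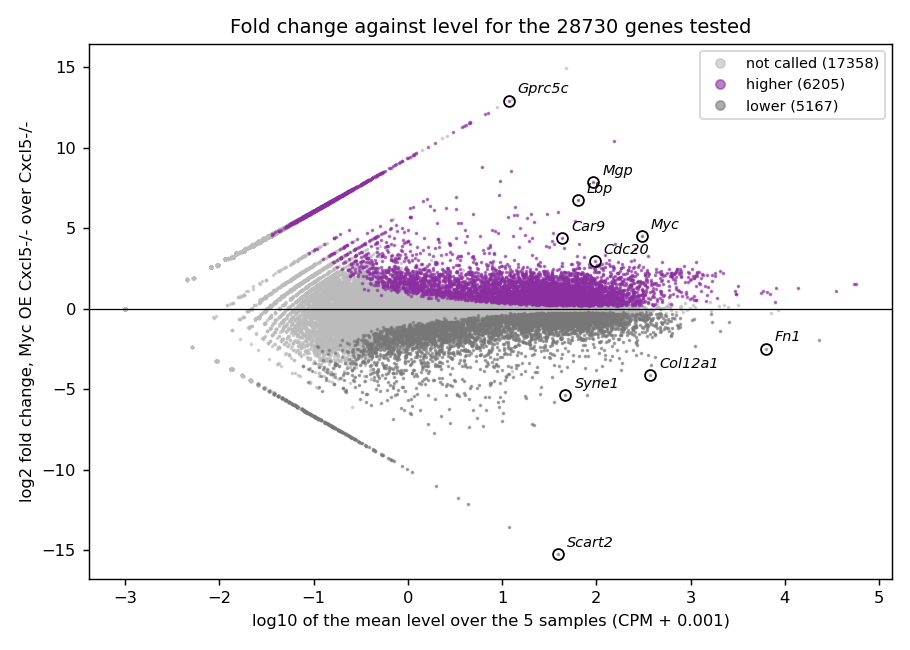
The plot sets the log2 fold change of MycOE Cxcl5-/- over Cxcl5-/- (vertical axis) against the log10 mean level over the 5 libraries (horizontal axis, CPM + 0.001) for the 28730 genes tested, coloured by call. The straight diagonal edges are genes with no count in one of the groups, whose fitted folds depend on the prior count, and Myc, with a log2 fold change of 4.54, lies among the higher genes of moderate level.

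Transcript length moved with the result. Among 12840 such genes that have an annotated length, the median log2 fold change went from 0.92 in the decile with the shortest transcripts (up to 609 nt) to -0.44 in the decile with the longest (from 3539 nt). In each MycOE Cxcl5-/- library the shortest decile lay 0.82 to 1.01 above the Cxcl5-/- mean on the log2 scale and the longest decile -0.50 to -0.39. Against Hif1aOE Cxcl5-/- the same medians were 0.20 and -0.08, and against WT 0.50 and 0.08. A fit with a per-library length offset, chosen after seeing the data, called 6608 genes higher and 4898 lower. Its values are given below for only some of the lists that it moved. Among those not given there, the median went from 1.04 to 0.87 for glycolysis and from 1.18 to 1.03 for mitochondrial ribosomal proteins. For mitosis it went the other way, from 1.64 to 1.75. The part of length in the results was not otherwise tested.

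**Figure D3:**
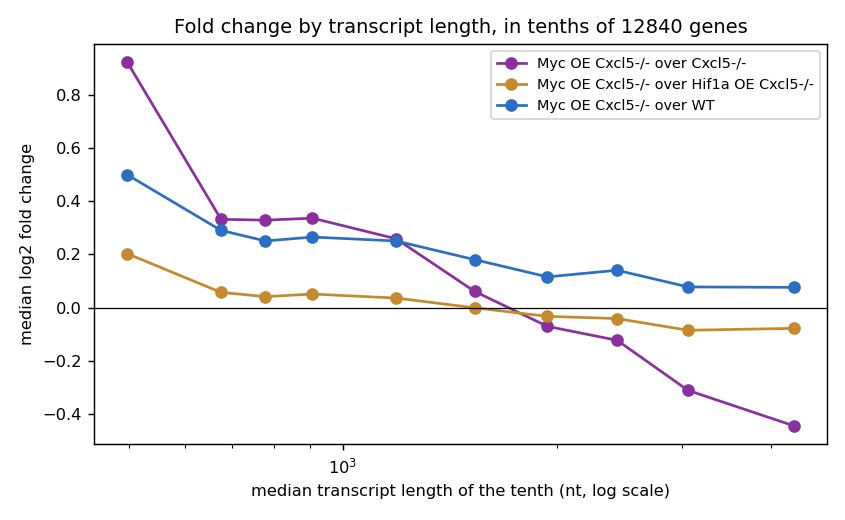
The plot gives the median log2 fold change (vertical axis) of each decile of 12840 genes ordered by transcript length (horizontal axis, median length of the decile in nt, log scale) for MycOE Cxcl5-/- over Cxcl5-/-, over Hif1aOE Cxcl5-/- and over WT. The fall with length is steepest against Cxcl5-/-, from 0.92 to -0.44.

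Genes of protein synthesis rose together. The list of nucleolus and ribosome biogenesis held 53 genes tested, of which 45 rose and 0 fell (median log2 fold change 1.01). Library totals gave 38 up and 3 down (median 0.67), and the length offset 43 up and 2 down (median 0.93). Ebna1bp2, a nucleolar factor of 60S maturation, had the lowest p of the list at 20.98 and 20.1 CPM in Cxcl5-/- and 93.9, 93.6 and 101 CPM in MycOE Cxcl5-/- (edgeR log2 difference 2.23 ± 0.10, adjusted p = 6.74e-08). Nop2, a methyltransferase of 28S rRNA, went from 23.8 and 23.2 to 68.2, 58.7 and 61.3 CPM (edgeR log2 difference 1.42 ± 0.09, adjusted p = 8.23e-07). Nucleophosmin, Npm1, and the box C/D particle protein Nop56 had log2 fold changes of 1.59 and 1.40 (adjusted p = 6.91e-07 and 1.08e-06 by edgeR). All 4 genes were higher in every MycOE Cxcl5-/- library than in either Cxcl5-/- library. The same held for 8529 of the 28730 genes tested, and 8279 were lower in every one.

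Of 41 translation initiation and elongation factors, 33 rose and 2 fell (median 0.91). With library totals there were 28 up and 6 down (median 0.57), and under the length offset 33 up and 5 down (median 0.76). Eef1g, a subunit of the exchange factor that reloads eEF1A, was at 510.3 and 564 CPM in Cxcl5-/- and 1816, 1623 and 1586 CPM in MycOE Cxcl5-/- (edgeR log2 difference 1.64 ± 0.11, adjusted p = 8.32e-07). Eif3k rose by 1.70 and Eif6, which keeps ribosomal subunits apart, by 1.33 on the log2 scale (adjusted p = 2.08e-06 and 2.08e-06 by edgeR). The members that fell in the main fit were Eif5b, the factor of subunit joining, and Eif4g2, a relative of the scaffold eIF4G, with log2 fold changes of -0.66 and -0.39 (adjusted p = 0.000762 and 0.00481 by edgeR). Without Cxcl5-/- replicate 1 the value of Eif4g2 was -0.34 and no longer past the limit. All 20 cytosolic aminoacyl-tRNA synthetases tested, the enzymes that charge tRNAs, rose (median 0.82). Under the length offset 19 were past the limit (median 0.65), and with library totals 16 (median 0.48). Sars, the seryl-tRNA synthetase, went from 73.5 and 79.1 to 196, 189 and 179 CPM (edgeR log2 difference 1.30 ± 0.08, adjusted p = 5.95e-07).

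Cytosolic ribosomal proteins had the highest median of the lists. All 75 tested rose, with log2 fold changes from 1.54 to 2.90 (median 2.13), and the median of the members lay 2.28, 2.21 and 1.93 above the Cxcl5-/- mean in the 3 libraries. Rps2 was at 287 and 266 CPM in Cxcl5-/- and 1633, 1514 and 1505 CPM in MycOE Cxcl5-/- (edgeR log2 difference 2.49 ± 0.15, adjusted p = 4.78e-07), and Rpl14 had a log2 fold change of 1.81 (adjusted p = 2.59e-07 by edgeR). These transcripts are short, with a median of 629 nt over the list, and under the length offset the list median was 1.68 with 75 members past the limit. Ribosomal protein genes have many near-identical pseudogenes among which reads could have been divided in counting, so single values are uncertain.

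**Figure D4:**
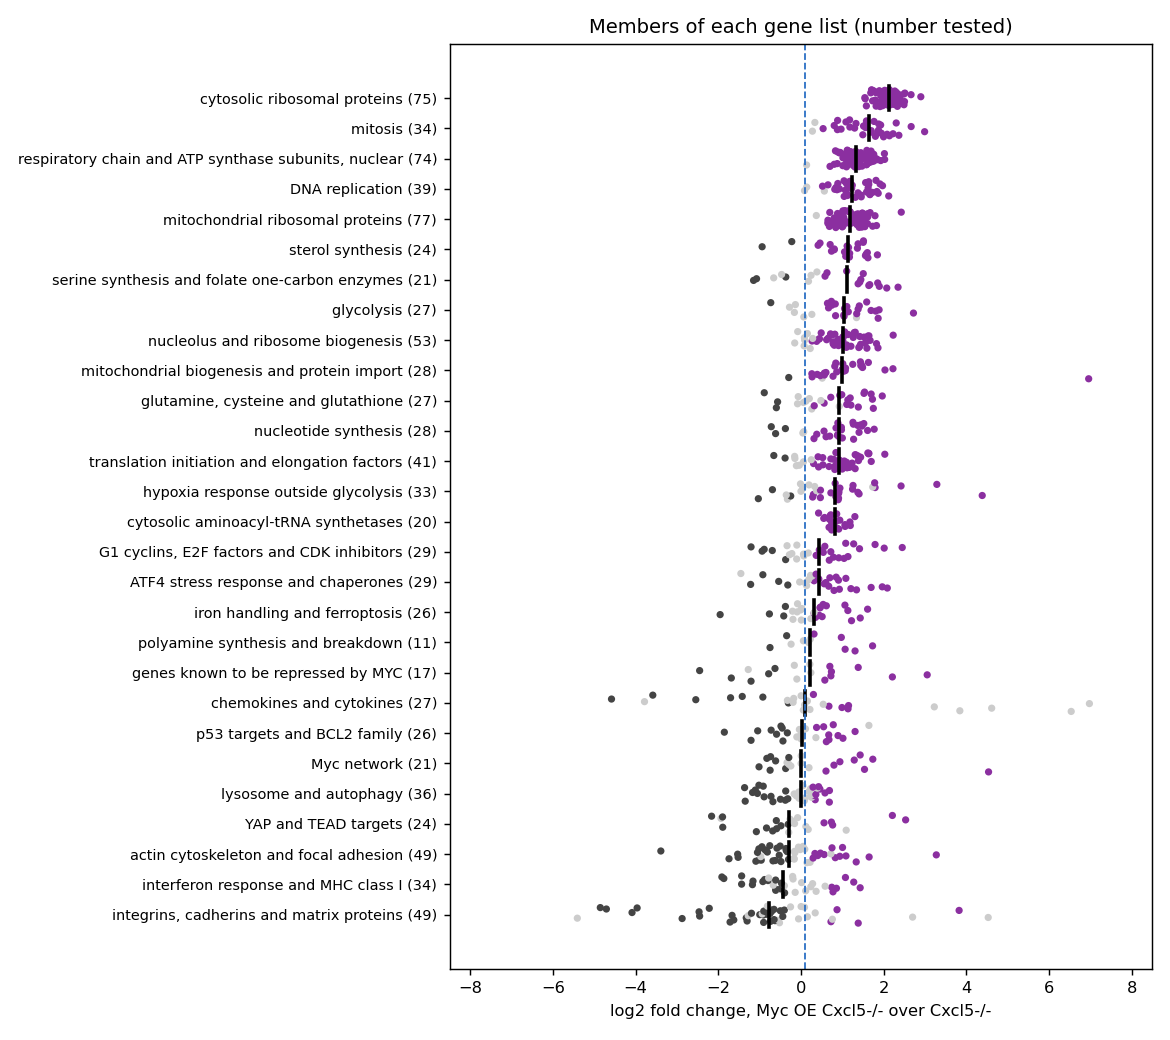
Each point is a member of a gene list, placed at its log2 fold change of MycOE Cxcl5-/- over Cxcl5-/- (horizontal axis), purple where it rose, dark grey where it fell and light grey where it did not pass the test, and black bars mark list medians. The dashed line is the median of all genes tested (0.11), and the list medians run from -0.78 for integrins, cadherins and matrix proteins to 2.13 for cytosolic ribosomal proteins.

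The E-box of 6 bases CACGTG, which reads the same on both strands, is the site MYC and MAX are known to prefer. It was searched in the 250 bases before the annotated start (RefSeq, GRCm38.p6), and 6.02% of all 32851 such windows held it. Of the protein-coding genes tested that had a window, 8.84% held it. The motif also lay before genes that were not called, such as Cdk6 and E2f3 (log2 fold changes 0.07 and -0.22). Windows are shown for Cdk4, Nop2 and Impdh2, which rose, and for the MYC antagonist Mnt, which fell, so that a motif can be seen beside either direction. Capitals mark the motif, and the windows lie on the plus strand at chr10:127063285-127063534, chr6:125131633-125131882, chr9:108560186-108560435 and chr11:74830674-74830923.
Cdk4: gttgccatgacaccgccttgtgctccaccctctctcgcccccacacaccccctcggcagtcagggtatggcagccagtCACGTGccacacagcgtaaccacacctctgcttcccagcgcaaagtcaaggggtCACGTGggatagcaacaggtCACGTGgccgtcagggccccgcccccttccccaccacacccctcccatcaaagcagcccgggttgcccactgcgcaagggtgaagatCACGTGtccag
Nop2: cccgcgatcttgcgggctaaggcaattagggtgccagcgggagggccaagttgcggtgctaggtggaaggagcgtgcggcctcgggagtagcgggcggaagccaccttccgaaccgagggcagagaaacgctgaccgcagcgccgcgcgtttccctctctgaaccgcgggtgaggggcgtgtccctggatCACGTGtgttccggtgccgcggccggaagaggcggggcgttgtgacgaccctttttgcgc
Impdh2: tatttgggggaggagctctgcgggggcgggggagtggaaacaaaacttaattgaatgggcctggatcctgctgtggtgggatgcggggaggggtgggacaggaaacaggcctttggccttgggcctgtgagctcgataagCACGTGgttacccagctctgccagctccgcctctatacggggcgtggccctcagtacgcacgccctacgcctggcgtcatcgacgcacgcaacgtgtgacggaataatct
Mnt: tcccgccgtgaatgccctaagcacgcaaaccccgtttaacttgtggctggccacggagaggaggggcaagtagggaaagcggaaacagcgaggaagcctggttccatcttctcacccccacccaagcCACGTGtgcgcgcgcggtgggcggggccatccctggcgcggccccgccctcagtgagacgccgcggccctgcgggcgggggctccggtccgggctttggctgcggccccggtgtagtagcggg
Cdk4, the partner kinase of D cyclins, carried 4 motifs and was at 184 and 177 CPM in Cxcl5-/- and 422, 398 and 366 CPM in MycOE Cxcl5-/- (edgeR log2 difference 1.13 ± 0.11, adjusted p = 9.23e-06). Nop2, Impdh2 and Mnt carried 1 each. Mnt was at 24.5 and 26.6 CPM in Cxcl5-/- and 13.1, 11.8 and 12.9 CPM in MycOE Cxcl5-/- (edgeR log2 difference -1.02 ± 0.11, adjusted p = 1.85e-05), lower in all 3 libraries. A match is a description of these letters and was not read as binding. The table held a window for 73.98% of the protein-coding genes tested, so shares within the called genes are not given.

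Most nucleotide synthesis genes rose. Of 28 nucleotide synthesis genes, 23 rose and 3 fell (median 0.91). Ctps, which makes CTP from UTP, was at 35.5 and 35.7 CPM in Cxcl5-/- and 117, 105 and 142 CPM in MycOE Cxcl5-/- (edgeR log2 difference 1.77 ± 0.13, adjusted p = 1.49e-06). Impdh2, the enzyme that commits IMP to guanine nucleotides, was at 52.9 and 54.7 CPM in Cxcl5-/- and 155, 135 and 137 CPM in MycOE Cxcl5-/- (edgeR log2 difference 1.40 ± 0.11, adjusted p = 2.52e-06). Tyms and Tk1, which supply thymidylate, had log2 fold changes of 1.47 and 1.44 (adjusted p = 1.21e-06 and 3.64e-06 by edgeR). Among those that fell were Rrm2b, the ribonucleotide reductase subunit induced by p53, and Ctps2, at -0.72 and -0.38 (adjusted p = 6.11e-05 and 0.00237 by edgeR).

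Serine synthesis and folate one-carbon enzymes numbered 21 tested, of which 13 rose and 3 fell (median 1.10). Psat1, the aminotransferase of serine synthesis (ENSMUSG00000024640, chromosome 19, 15904678 to 15947337, minus strand), was at 149.7 and 133 CPM in Cxcl5-/- and 741, 702 and 714 CPM in MycOE Cxcl5-/- (edgeR log2 difference 2.35 ± 0.10, adjusted p = 4.64e-08). The mitochondrial folate enzymes moved the same way, as Mthfd2 went from 29.9 and 25.8 to 105, 97.1 and 99.2 CPM (edgeR log2 difference 1.85 ± 0.09, adjusted p = 1.17e-07), Shmt2 had a log2 fold change of 1.66 and Mthfd1l of 1.42 (adjusted p = 3.06e-07 and 4.66e-07 by edgeR). Aldh1l1, which oxidises formyl-tetrahydrofolate, fell from 54.1 and 59.5 to 24.6, 27.7 and 24.5 CPM (edgeR log2 difference -1.15 ± 0.11, adjusted p = 6.59e-06). Against Hif1aOE Cxcl5-/- libraries Psat1, Mthfd2 and Shmt2 were also higher, by 0.67, 0.45 and 0.26 on the log2 scale (adjusted p = 0.000158, 0.00149 and 0.041 by edgeR), and 10 members of the list were higher and 4 lower, beside 9.54% and 9.73% of all genes tested.

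Polyamine genes moved in both directions. Amd1 and Odc1, the decarboxylases that open the pathway, rose, with Amd1 at 80.02 and 78.5 CPM in Cxcl5-/- and 262, 260.4 and 266 CPM in MycOE Cxcl5-/- (edgeR log2 difference 1.73 ± 0.08, adjusted p = 8.44e-08) and Odc1 at 138 and 141 CPM in Cxcl5-/- and 380.3, 333 and 321 CPM in MycOE Cxcl5-/- (edgeR log2 difference 1.31 ± 0.11, adjusted p = 2.82e-06). Sms, the spermine synthase, fell from 88.02 and 76.99 to 47.3, 48.6 and 51.01 CPM (edgeR log2 difference -0.75 ± 0.08, adjusted p = 1.82e-05). Of the 11 members, 5 rose and 2 fell, beside 21.6% and 18% of all genes tested. The median of 0.22 became -0.11 with library totals and 0.10 under the length offset. Reads of Amd1 could be split with near-identical copies. In the list of glutamine, cysteine and glutathione genes, 16 of 27 rose and 3 fell (median 0.92). Asns, asparagine synthetase, was at 55.8 and 53.2 CPM in Cxcl5-/- and 233, 202 and 203 CPM in MycOE Cxcl5-/- (edgeR log2 difference 1.96 ± 0.10, adjusted p = 1.89e-07), and the glutamine carrier Slc1a5 had a log2 fold change of 1.38 (adjusted p = 2.67e-07 by edgeR). Glutamine synthetase, Glul, fell (edgeR log2 difference -0.60 ± 0.13, adjusted p = 0.00264), as did Mat2a, which makes S-adenosylmethionine (edgeR log2 difference -0.89 ± 0.08, adjusted p = 5.04e-06).

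The cell cycle lists rose nearly throughout. Of 39 DNA replication genes, 36 rose and 0 fell (median 1.22), and of 34 mitosis genes, 32 rose and 0 fell (median 1.64). By library, the mitosis median lay 1.64, 1.57 and 1.75 above the Cxcl5-/- mean. Cdc20, the activator of the anaphase-promoting complex, was at 17.7 and 19.6 CPM in Cxcl5-/- and 149, 139 and 156 CPM in MycOE Cxcl5-/- (edgeR log2 difference 2.99 ± 0.10, adjusted p = 1.48e-08). Mcm5, a subunit of the replicative helicase, was at 39.6 and 37.9 CPM in Cxcl5-/- and 174, 168 and 163 CPM in MycOE Cxcl5-/- (edgeR log2 difference 2.12 ± 0.09, adjusted p = 5e-08). Kif2c and Aurkb, which correct kinetochore attachments, had log2 fold changes of 2.66 and 2.22 (adjusted p = 7.13e-08 and 5.69e-08 by edgeR). Cdk1, its cyclin Ccnb1 and the licensing factor Cdc6, which the study chose with these samples in hand, so that they are no independent evidence, rose by 1.99, 2.14 and 1.66 on the log2 scale (adjusted p = 1.75e-06, 2.13e-07 and 2.04e-06 by edgeR). All 10 genes that the study chose rose, with a median of 1.39.

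Regulators of G1 were mixed, with 16 of 29 rising and 5 falling (median 0.44), beside 21.6% and 18% of all genes tested. Library totals gave 11 up and 8 down (median 0.11), and without Cxcl5-/- replicate 2 the median was 0.28. Cks2, a small subunit of CDK complexes, and Skp2, which marks p27 for destruction, rose by 2.45 and 1.41 on the log2 scale (adjusted p = 6.67e-07 and 1.71e-06 by edgeR). The CDK4 and CDK6 inhibitor Cdkn2c also rose, from 22.5 and 27.1 to 91.7, 86.2 and 79.5 CPM (edgeR log2 difference 1.79 ± 0.12, adjusted p = 9.33e-07). Cdkn1a, which encodes the inhibitor p21, fell from 13.4 and 14.8 to 6.24, 6.59 and 5.46 CPM (edgeR log2 difference -1.21 ± 0.13, adjusted p = 2.64e-05), and it stood at 12.8, 16.7 and 16.7 CPM in Hif1aOE Cxcl5-/- and at 60.3 and 56.2 CPM in WT. Rb1 and its relative Rbl2 fell (log2 fold changes -0.70 and -0.89, adjusted p = 0.000414 and 2.39e-05 by edgeR). Histone genes took 0.423% and 0.443% of the counts in Cxcl5-/- and 1.33% to 1.41% in MycOE Cxcl5-/-, and of 69 replication-type histone genes tested, a set counted after seeing the data, 63 rose and 1 fell. Many of them are near-identical copies and are uncertain one by one.

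Glycolysis genes rose in 20 of 27 cases and fell in 1 (median 1.04). The glucose carrier Slc2a1 was at 62.9 and 54.8 CPM in Cxcl5-/- and 183, 209 and 251 CPM in MycOE Cxcl5-/- (edgeR log2 difference 1.86 ± 0.13, adjusted p = 1.37e-06). Triosephosphate isomerase, Tpi1, went from 373 and 383 to 1295, 1233.5 and 1136 CPM (edgeR log2 difference 1.69 ± 0.13, adjusted p = 1.61e-06). Glycolytic enzymes that the study also chose, Hk2, Aldoa, Pgk1 and Ldha, had log2 fold changes of 1.04, 1.14, 1.38 and 1.41 (adjusted p = 5.93e-05, 7.02e-06, 1.79e-06 and 3.56e-06 by edgeR), though the last 3 have near-identical pseudogenes. In the pentose phosphate branch the transketolase Tkt rose (edgeR log2 difference 1.59 ± 0.08, adjusted p = 1.38e-07) while Pgd, which makes ribulose 5-phosphate, fell (edgeR log2 difference -0.73 ± 0.09, adjusted p = 3.74e-05). Against WT the list had 6 higher, 10 lower and a median of -0.17, beside 17.1% and 14.7% of all genes tested.

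Of 33 genes of the hypoxia response outside glycolysis, 21 rose and 3 fell (median 0.82). The length offset gave 20 up and 2 down (median 0.51), and library totals 16 up and 5 down (median 0.49). Car9, the membrane carbonic anhydrase that is a classic HIF target, was at 3.22 and 3.55 CPM in Cxcl5-/- and 61.01, 95.1 and 55.8 CPM in MycOE Cxcl5-/- (edgeR log2 difference 4.38 ± 0.33, adjusted p = 1.89e-06). It was at 2.86, 4.02 and 5.66 CPM in Hif1aOE Cxcl5-/- and at 6.24 and 8.89 CPM in WT, so all 3 MycOE Cxcl5-/- libraries lay above every other library of the table (against Hif1aOE Cxcl5-/-, edgeR log2 difference 4.08 ± 0.27, adjusted p = 1.97e-06). Bnip3, a mitophagy receptor, had a log2 fold change of 1.40 (adjusted p = 2.19e-06 by edgeR), but was lower than in WT (log2 fold change -0.39, adjusted p = 0.0159 by edgeR). Ero1a, an oxidase of disulphide formation, and Eif4ebp1, a brake on cap-dependent translation, rose by 1.25 and 1.44 (adjusted p = 1.73e-05 and 7.16e-06 by edgeR). Arnt, the constant partner of HIF1A, fell (edgeR log2 difference -1.03 ± 0.12, adjusted p = 3.57e-05).

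Nuclear genes of mitochondria rose with few exceptions. Of 77 mitochondrial ribosomal proteins, 76 rose and 0 fell (median 1.18). Nuclear subunits of the respiratory chain and ATP synthase rose in 73 of 74 cases, with a median of 1.32, or 0.97 with 71 up and 1 down under the length offset. Uqcrh, a subunit of complex III, was at 77.8 and 84.95 CPM in Cxcl5-/- and 352, 326 and 309 CPM in MycOE Cxcl5-/- (edgeR log2 difference 2.02 ± 0.15, adjusted p = 1.61e-06). Mrps15 was at 14.8 and 16.4 CPM in Cxcl5-/- and 87.4, 83.8 and 79.8 CPM in MycOE Cxcl5-/- (edgeR log2 difference 2.42 ± 0.16, adjusted p = 7.63e-07), and it was also higher than in Hif1aOE Cxcl5-/- (log2 fold change 1.47, adjusted p = 1.63e-05 by edgeR). In the list of mitochondrial biogenesis and import, 26 of 28 rose and 1 fell (median 1.00), among them the import receptor Tomm20 (edgeR log2 difference 1.46 ± 0.11, adjusted p = 2.22e-06) and the chaperonin Hspe1 (edgeR log2 difference 2.03 ± 0.14, adjusted p = 1.15e-06).

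The 13 mRNAs that mitochondrial DNA encodes, counted after seeing the data, had 4 up, 5 down and a median log2 fold change of -0.09. mt-Nd3 and mt-Co3, subunits of complexes I and IV, rose by 1.31 and 0.93 on the log2 scale (adjusted p = 0.000321 and 0.000625 by edgeR), and mt-Nd3, a very short mRNA, was not past the limit under the length offset (0.13). mt-Nd4 and mt-Nd5, both of complex I, had log2 fold changes of -1.19 and -1.17 (adjusted p = 1.36e-05 and 9.56e-06 by edgeR), and mt-Nd5 stood at 665 and 672 CPM in Cxcl5-/- and 265, 342 and 282 CPM in MycOE Cxcl5-/-. The difference between nuclear and mitochondrial genes was not tested.

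Sterol synthesis, the route from acetyl-CoA to cholesterol, rose in 22 of 24 genes and fell in 2 (median 1.13). Fdps, farnesyl diphosphate synthase, was at 55.2 and 64.3 CPM in Cxcl5-/- and 186, 176 and 183 CPM in MycOE Cxcl5-/- (edgeR log2 difference 1.60 ± 0.11, adjusted p = 9.98e-07). Hsd17b7, a reductase of the same route, fell from 52.8 and 52.5 to 25.7, 28.7 and 27.8 CPM (edgeR log2 difference -0.94 ± 0.12, adjusted p = 8.63e-05). The list was higher than in Cxcl5-/- but lower than in Hif1aOE Cxcl5-/- and WT. Of its members, 17 were lower and 0 higher than in Hif1aOE Cxcl5-/- (median -0.66), and 19 lower and 1 higher than in WT (median -0.50).

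Among 29 genes of the ATF4 stress response and chaperones, 17 rose and 4 fell, beside 21.6% and 18% of all genes tested. Their median was 0.43, or 0.09 with library totals. Atf4 itself, Trib3 and Chac1, both induced by ATF4, had log2 fold changes of 1.34, 2.09 and 1.69 (adjusted p = 2.45e-06, 6.78e-07 and 2.04e-06 by edgeR), and each was lower than in WT (log2 fold changes -0.52, -1.18 and -1.69, adjusted p = 0.00255, 3.15e-05 and 2.11e-06 by edgeR). The heat shock protein gene Hsph1 fell (edgeR log2 difference -0.93 ± 0.09, adjusted p = 7.98e-06). Iron handling and ferroptosis genes rose in 13 of 26 cases and fell in 4, beside 21.6% and 18% of all genes tested. Their median was 0.31, or 0.21 without MycOE Cxcl5-/- replicate 1. With library totals the counts turned to 5 up and 10 down and the median to -0.03. Gpx4, the peroxidase that detoxifies lipid peroxides, was at 176 and 186 CPM in Cxcl5-/- and 455, 394 and 339 CPM in MycOE Cxcl5-/- (edgeR log2 difference 1.13 ± 0.15, adjusted p = 0.000127), and the transferrin receptor Tfrc went from 174 and 166 to 368, 381 and 438 CPM (edgeR log2 difference 1.22 ± 0.11, adjusted p = 4.66e-06). Acsl4, which loads membranes with polyunsaturated fatty acids, fell (edgeR log2 difference -0.77 ± 0.12, adjusted p = 0.000387), a call that was lost under the length offset (log2 fold change -0.12). Steap3, a reductase of endosomal iron, also fell (edgeR log2 difference -1.96 ± 0.16, adjusted p = 3.56e-06).

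Genes that hold cells to the matrix mostly fell. Of 49 integrins, cadherins and matrix proteins, 30 fell and 4 rose (median -0.78, and -0.56 with 27 down under the length offset). Fibronectin, Fn1 (ENSMUSG00000026193, chromosome 1, 71585520 to 71653200, minus strand), was at 12332 and 12328 CPM in Cxcl5-/- and 1967, 2430 and 2286 CPM in MycOE Cxcl5-/- (edgeR log2 difference -2.47 ± 0.15, adjusted p = 3.89e-07). Col12a1, a fibril-associated collagen, went from 867 and 858 to 38.8, 61.5 and 51.5 CPM (edgeR log2 difference -4.09 ± 0.22, adjusted p = 2.27e-07). Itgb8, which activates latent TGF-beta, and Itga5, part of the fibronectin receptor, had log2 fold changes of -2.88 and -1.72 (adjusted p = 1.03e-07 and 4.01e-07 by edgeR). Fn1 and Itga5 were also lower than in WT (log2 fold changes -1.02 and -1.30, adjusted p = 0.000327 and 5.06e-06 by edgeR). Against this direction the laminin chain Lamb3 rose from 3.15 and 3.86 to 45.2, 53.02 and 50.7 CPM (edgeR log2 difference 3.82 ± 0.18, adjusted p = 9.19e-08).

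The 8 fibroblast markers, of which Fap was at 0 in all 5 libraries, are given beside these genes. Their summed level was 1487 and 1522 CPM in Cxcl5-/-, 601 to 689 CPM in MycOE Cxcl5-/-, 629 to 735 CPM in Hif1aOE Cxcl5-/- and 293 to 312 CPM in WT. Col3a1, which gave most of that sum, went from 1029 and 1056 to 348, 289 and 345 CPM, and the matrix proteoglycans Dcn and Lum had log2 fold changes of -4.86 and -5.78 (adjusted p = 1.19e-06 and 2.4e-07 by edgeR). Pdgfra, a growth factor receptor of the list, was at 112 and 109 CPM in Cxcl5-/- and 144, 141 and 163 CPM in MycOE Cxcl5-/-, and at 10.96 and 12.2 CPM in WT. Their part in the result was not tested.

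Of 49 actin cytoskeleton and focal adhesion genes, 24 fell and 13 rose, beside 18% and 21.6% of all genes tested. Their median was -0.30, -0.19 under the length offset and -0.64 with library totals. Zyx, a focal adhesion protein that responds to tension, was at 71.9 and 72.2 CPM in Cxcl5-/- and 22.4, 21.1 and 20.99 CPM in MycOE Cxcl5-/- (edgeR log2 difference -1.74 ± 0.09, adjusted p = 1.17e-07). Moesin, Msn, which ties actin to the membrane, fell from 483 and 458 to 152, 174 and 165 CPM (edgeR log2 difference -1.52 ± 0.08, adjusted p = 2.19e-07), while its relative ezrin, Ezr, rose (edgeR log2 difference 1.65 ± 0.09, adjusted p = 2.67e-07). Smooth muscle actin, Acta2, rose from 35.7 and 41.7 to 104, 91.6 and 96.6 CPM (edgeR log2 difference 1.33 ± 0.13, adjusted p = 1.22e-05) and was at 2.27, 3.11 and 2.8 CPM in Hif1aOE Cxcl5-/-. The list of YAP and TEAD targets fell in 10 of 24 cases and rose in 5 (median -0.28), beside 18% and 21.6% of all genes tested. The length offset left 8 up and 9 down (median -0.18), and library totals 3 up and 15 down (median -0.62). Ccn2, a secreted YAP target, was at 277 and 277 CPM in Cxcl5-/- and 141, 140.4 and 111 CPM in MycOE Cxcl5-/- (edgeR log2 difference -1.08 ± 0.16, adjusted p = 0.000255), with 9.29, 13.5 and 15.2 CPM in Hif1aOE Cxcl5-/- and 16.1 and 16.1 CPM in WT. Levels of Ccn2 in MycOE Cxcl5-/- lay between those of Cxcl5-/- and the other groups. Tead1, a DNA-binding partner of YAP, had a log2 fold change of -1.90 (adjusted p = 1.72e-06 by edgeR), and Ccn1, another target, overlapped between the groups (edgeR log2 difference -0.30 ± 0.18, adjusted p = 0.208), although without MycOE Cxcl5-/- replicate 1 it was -0.51 and past the limit.

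Of 34 genes of the interferon response and MHC class I, 15 fell and 6 rose, beside 18% and 21.6% of all genes tested. Their median was -0.44, or -0.78 with library totals. Nlrc5, the transactivator of MHC class I genes, was at 125 and 131 CPM in Cxcl5-/- and 34.9, 34.1 and 32.4 CPM in MycOE Cxcl5-/- (edgeR log2 difference -1.92 ± 0.07, adjusted p = 2.51e-08). The class I heavy chains H2-D1 and H2-K1 had log2 fold changes of -1.16 and -0.93 (adjusted p = 2.88e-06 and 6.87e-05 by edgeR), and reads of such polymorphic, near-identical genes could be split. Cd47, the signal against phagocytosis, fell (edgeR log2 difference -1.44 ± 0.10, adjusted p = 1.35e-06). Irf1, an interferon-induced transcription factor, rose (edgeR log2 difference 0.77 ± 0.09, adjusted p = 4.53e-05). Against Hif1aOE Cxcl5-/- the list had 6 higher and 13 lower (median -0.56).

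Of 27 chemokines and cytokines, 5 rose and 7 fell, beside 21.6% and 18% of all genes tested (median 0.08, 0.05 with genes at 3 counts or fewer in 1 group set to their bounds and those in both left out, and -0.19 with library totals). The alarmin Il33 went from 16.5 and 19.2 to 0.444, 1.33 and 0.476 CPM (edgeR log2 difference -4.59 ± 0.45, adjusted p = 1.06e-05). Tgfb1 and Il18 had log2 fold changes of -1.71 and -2.55 (adjusted p = 4.99e-06 and 1.86e-05 by edgeR). Ccl2, which attracts monocytes, rose from 18.1 and 17.4 to 41.7, 41.2 and 35.1 CPM (edgeR log2 difference 1.15 ± 0.18, adjusted p = 0.000417) and stayed below the 155, 246 and 158 CPM of Hif1aOE Cxcl5-/-. Of 36 lysosome and autophagy genes, 9 rose and 14 fell (median 0.00), beside 21.6% and 18% of all genes tested. Library totals gave 1 up and 20 down (median -0.34), and the replicate block 13 up and 13 down. Without Cxcl5-/- replicate 1 or 2 there were 4 up and 12 down or 2 up and 11 down, and without MycOE Cxcl5-/- replicate 1 or 2 5 up and 14 down or 6 up and 13 down. The saposin precursor Psap fell from 1047 and 1154 to 542, 478 and 443 CPM (edgeR log2 difference -1.17 ± 0.10, adjusted p = 4.43e-06) and the autophagy receptor Sqstm1 rose (edgeR log2 difference 0.69 ± 0.11, adjusted p = 0.000307).

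Among the partners and rivals of MYC, 8 of 21 tested rose and 7 fell, beside 21.6% and 18% of all genes tested. The median was 0, the fitted value of a member with 3 counts or fewer in every library of both groups, and -0.12 without that member. It was -0.33 with library totals, -0.33 with the replicate block and 0.23 under the length offset. Beside Myc itself, Ruvbl2, a helicase of chromatin complexes, and Mxd3 rose by 1.73 and 1.53 on the log2 scale (adjusted p = 8.93e-08 and 2.98e-05 by edgeR). Trrap, a scaffold of the histone acetyltransferases that MYC recruits, fell (edgeR log2 difference -0.83 ± 0.11, adjusted p = 9.44e-05), as did Huwe1, a ubiquitin ligase of MYC (edgeR log2 difference -0.74 ± 0.12, adjusted p = 0.000351). Max, the obligate partner, was at 20.1 and 20.8 CPM in Cxcl5-/- and 29.8, 32.3 and 30.9 CPM in MycOE Cxcl5-/- (edgeR log2 difference 0.60 ± 0.11, adjusted p = 0.00135), a call that was lost with library totals (log2 fold change 0.27). Of 17 genes known to be repressed by MYC, 7 rose and 5 fell (median 0.21), beside 4881 and 3824 of the 13042 genes averaging 100 counts or more. Library totals gave 4 up and 6 down (median -0.13), and the median was 0.02 under the length offset and 0.13 without MycOE Cxcl5-/- replicate 1. Gadd45a and the angiogenesis inhibitor Thbs1 fell, with Gadd45a at 185 and 203 CPM in Cxcl5-/- and 62.2, 63.4 and 55.01 CPM in MycOE Cxcl5-/- (edgeR log2 difference -1.69 ± 0.08, adjusted p = 1.32e-07) and Thbs1 at -0.78 (adjusted p = 1.82e-05 by edgeR), but Gadd45b and Ndrg1 of the same list rose (2.21 and 0.72, adjusted p = 9.28e-07 and 9.22e-05 by edgeR). In the list of p53 targets and the BCL2 family, 9 of 26 rose and 9 fell (median 0.01), beside 21.6% and 18% of all genes tested. With library totals this list had 4 up and 13 down (median -0.27). Bcl2 and Bcl2l1, which block apoptosis, had log2 fold changes of -1.05 and -0.72, and Bax, which drives it, of 1.01 (adjusted p = 1.06e-05, 0.000577 and 0.000183 by edgeR).

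Of the 10 genes with the largest rise under the naming rule, 9 had 0 counts in both Cxcl5-/- libraries. Gprc5c, an orphan receptor of the retinoid-induced family (ENSMUSG00000051043, chromosome 11, 114851152 to 114872617, plus strand), was at 18.4, 21.6 and 18.9 CPM in MycOE Cxcl5-/-, at least 319-fold higher against 3 counts per library. Btbd17 and Sp7, a transcription factor known from bone, were at least 178-fold and 124-fold higher. Elobl, Rtl3, Ecscr, Ccdc33, Wfdc1 and Arhgap29 were at least 101-fold to 189.8-fold higher. The last of them, H2ac18, a histone gene with near-identical copies among which reads could be divided, was at 0.208 and 0.162 CPM in Cxcl5-/- and 249.8, 285 and 231 CPM in MycOE Cxcl5-/- (log2 fold change 10.41, adjusted p = 0.0166 by edgeR). Without Cxcl5-/- replicate 1 or 2 its log2 fold change was 10.61 or 10.26 and no longer past the limit. Its copy H2ac19 was at 0 in both Cxcl5-/- libraries and at 137, 0 and 99.5 CPM in MycOE Cxcl5-/-, so single values of these copies are uncertain. Among genes counted above 3 in all 5 libraries, a selection made after seeing the data, Mgp, an inhibitor of calcification, went from 0.498 and 0.812 to 142, 199.8 and 121 CPM (edgeR log2 difference 7.87 ± 0.29, adjusted p = 1.97e-08), and Lbp, which hands lipopolysaccharide to its receptor, from 0.892 and 1.06 to 111, 113 and 91.2 CPM (edgeR log2 difference 6.75 ± 0.23, adjusted p = 1.56e-08). Both were higher than in Hif1aOE Cxcl5-/- and WT as well (against WT, log2 fold changes 7.17 and 4.74, adjusted p = 4.79e-08 and 7.93e-08 by edgeR).

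At the other end, Scart2, a scavenger receptor gene of T cells (ENSMUSG00000054672, chromosome 7, 140247284 to 140300736, plus strand), was at 92.8 and 101 CPM in Cxcl5-/- and at 0 counts in all 3 MycOE Cxcl5-/- libraries, at least 1602-fold lower. It was at 2.51, 4.18 and 3.56 CPM in Hif1aOE Cxcl5-/- and 0.243 and 0.457 CPM in WT. The digestive protease gene Ctrb1 and the TNF family ligand Tnfsf18 also had 0 counts in every MycOE Cxcl5-/- library and were at least 179-fold and 141-fold lower. Il13ra2, the decoy receptor of interleukin-13, fell from 50.2 and 52.4 to 0.529, 0.261 and 0.317 CPM (edgeR log2 difference -7.12 ± 0.28, adjusted p = 2.69e-08). Atp10b, Adamts16, Ablim3, Dlgap2 and Enho had log2 fold changes from -7.32 to -6.66. Outside the rule, Syne1, a giant protein that links the nucleus to the cytoskeleton, was at 113 and 114 CPM in Cxcl5-/- and 2.75, 2.98 and 2.5 CPM in MycOE Cxcl5-/- (edgeR log2 difference -5.37 ± 0.10, adjusted p = 2.05e-10). The last of the 10, Snord3a, has 2 entries of that symbol. Over both, it was at 28.1 and 23.6 CPM in Cxcl5-/- and 69.6, 55.7 and 70.9 CPM in MycOE Cxcl5-/-, while one entry rose (log2 fold change 6.05) and the other fell (-6.99), so single entries of this multicopy RNA are uncertain.

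Compared with Hif1aOE Cxcl5-/-, which carries the same knockout and another insert, 2742 genes were higher in MycOE Cxcl5-/- and 2796 lower, which is 9.54% and 9.73% of those tested. Scaling by library totals gave 1982 and 3504. The lists with the most positive medians were cytosolic ribosomal proteins (0.63, 62 of 75 higher) and the respiratory chain (0.33, 26 of 74 higher), and those with the most negative were sterol synthesis (-0.66) and the interferon list (-0.56). Ribosomal protein and respiratory chain transcripts are short, and the shortest decile of genes had a median of 0.20 in this comparison. The part of length in these list medians was not tested. Amd1, Odc1 and Cdc20 were higher, by 1.00, 0.58 and 0.96 on the log2 scale (adjusted p = 2.28e-06, 0.000951 and 8.71e-06 by edgeR). Islr, a secreted protein of mesenchymal cells, was at 276, 262 and 214 CPM against 1.33, 3.3 and 3.4 CPM (edgeR log2 difference 6.54 ± 0.29, adjusted p = 1.13e-07). The hormone gene Cck was at 37.6, 138 and 47.96 CPM in Hif1aOE Cxcl5-/- and had 0 counts in all 3 MycOE Cxcl5-/- and both Cxcl5-/- libraries.

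Compared with WT, which lacks the knockout and any insert, 4903 genes were higher in MycOE Cxcl5-/- and 4225 lower, or 17.1% and 14.7% of those tested. These counts changed with the scaling and with the WT libraries in the fit. DESeq2's size factors in edgeR gave 3739 higher and 5115 lower, library totals 2477 and 6217, and leaving out WT replicate 1 or 2 gave 3139 and 1787 or 3198 and 1756. Ribosomal proteins (70 of 75 higher, median 0.86) and respiratory chain subunits (70 of 74 higher, median 0.85) lay above WT. Integrins, cadherins and matrix proteins (26 of 49 lower, 7 higher, median -0.89) and hypoxia genes (16 of 33 lower, 9 higher, median -0.33) lay below. Ribosomal protein and respiratory chain transcripts are short (list medians 628.5 and 607.5 nt), and the shortest decile of genes had a median of 0.50 against WT. The part of length in these list medians was not tested. Itga6, the laminin receptor subunit, was at 3.19, 3.83 and 3.07 CPM in MycOE Cxcl5-/- and 76.95 and 80.04 CPM in WT (edgeR log2 difference -4.55 ± 0.11, adjusted p = 3.69e-09), with no overlap. Against Cxcl5-/-, however, Itga6 was called higher, a call that was lost with library totals (log2 fold change 0.39). Mitosis genes had a median difference from WT of 0.06, with 9 of 34 higher and 3 lower.

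**Figure D5:**
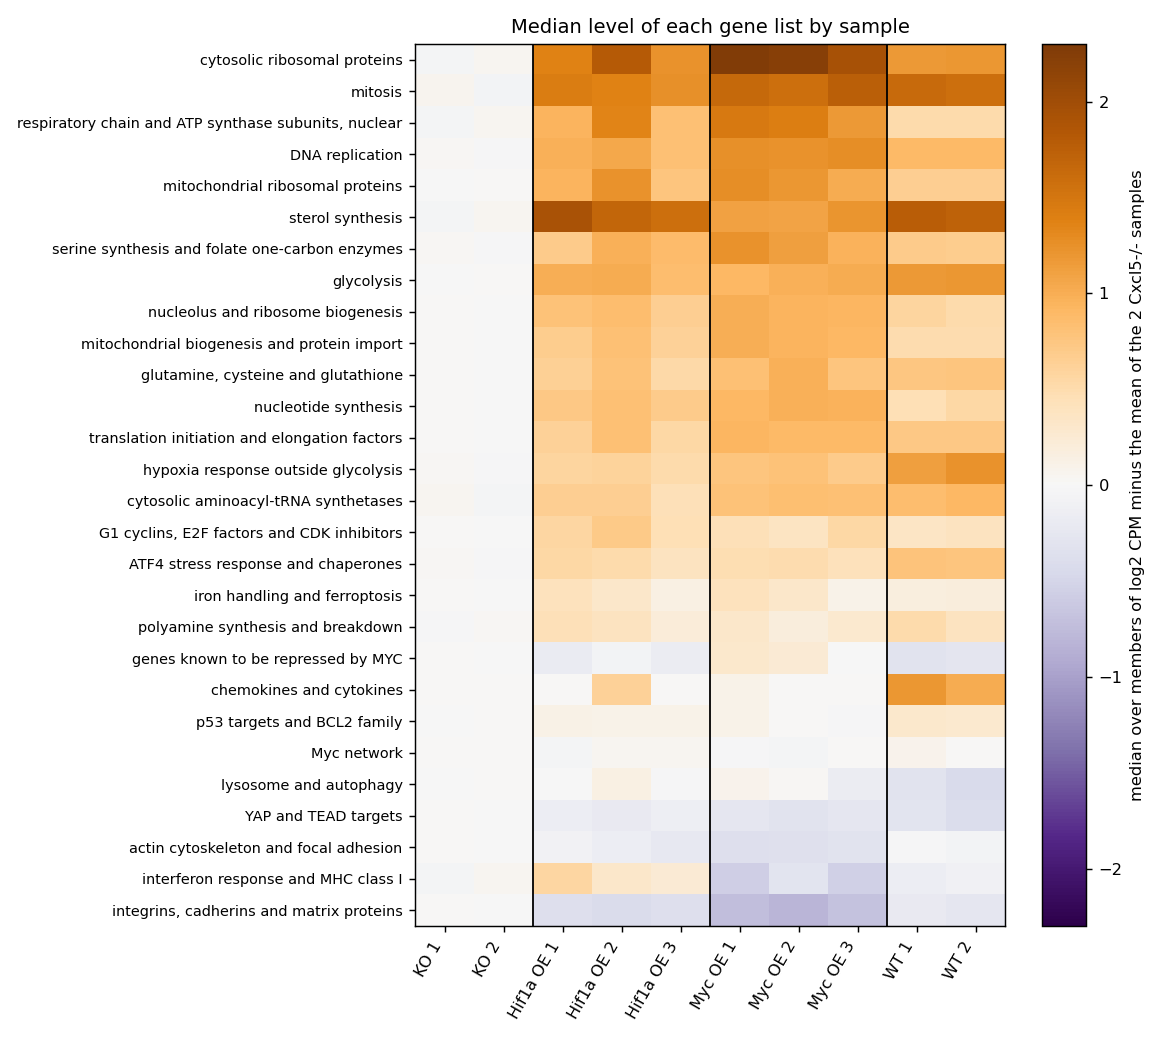
Colours give, for each gene list (rows) and 3D library (columns, by group, with KO for Cxcl5-/-), the median over members of the log2 CPM minus the mean of the 2 Cxcl5-/- libraries, from purple (lower) to orange (higher). Ribosomal proteins are highest in the 3 MycOE Cxcl5-/- libraries (2.28, 2.21 and 1.93), sterol synthesis is higher in the Hif1aOE Cxcl5-/- and WT libraries than in these (1.11, 1.09 and 1.22), and the matrix list is lowest in them (-0.74, -0.81 and -0.69).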

How the data were processed

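Mouse total RNA from 3D culture was sequenced in 10 libraries (3 MycOE Cxcl5-/-, 2 Cxcl5-/-, 3 Hif1aOE Cxcl5-/- and 2 WT), grouped by their labels. The authors deposited raw read counts per gene for 56941 genes, made from stranded TruSeq total RNA libraries with HISAT2 and StringTie on GRCm38 per the submitters' processing notes and the study's methods. The annotation release, the versions of HISAT2 and StringTie, and the step from StringTie to whole counts are not given in the sources used here. The authors tested with DESeq2.

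Counts were fitted in edgeR 4.0.16 (R 4.3.3, limma 3.58.1) with TMM scaling, filterByExpr by group and the quasi-likelihood test over all 10 libraries, with Benjamini-Hochberg adjustment and a limit of 0.05. Standard errors are the log2 fold change divided by the root of F. A group with 3 counts or fewer in every library was treated as a floor of 3 counts per library. The pipeline was tested on simulated data. DESeq2 1.42.0, other scalings, other filters, the replicate block and leaving out libraries were alternatives.

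Named genes were, by rule, the targets, the 10 largest changes in each direction among genes averaging 100 counts or more, and up to 4 members of each list with the lowest p in each direction, and the largest changes against the other groups. Others, among them Cdk4, Max, Ccn1, Ccn2, the fibroblast and mitochondrially encoded genes, Mgp, Lbp and Syne1, were chosen after their values were seen. Members and lists were chosen with earlier results of these data known, and no list was tested as a set. Gene coordinates are those of GRCm38. Same-numbered libraries did not deviate together (mean correlation 0.00408 over 13 pairs, against -0.0022 over 24 others), so the numbers did not pair them.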

Additional observations from a re-analysis of the deposited data

How the results depend on the processing

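Counts of higher and lower genes against Cxcl5-/- stayed within 1.5 times of 6205 and 5167 in every alternative but a fold limit. When a log2 fold change beyond 1 in size was also asked for, there were 3518 higher and 2848 lower genes against Cxcl5-/-, 854 and 1124 against Hif1aOE Cxcl5-/-, and 1505 higher against WT. Against WT, library totals gave 2477 higher and no filter on low counts 2448 lower. Leaving out each library in turn gave 4671 to 5971 higher and 3568 to 5014 lower against Cxcl5-/-, 2065 to 3227 and 2150 to 2837 against Hif1aOE Cxcl5-/-, and 3139 to 4505 and 1756 to 3344 against WT, with fewer libraries in each fit. The cause of the other changes was not tested.

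With the replicate block the counts were 6050 higher and 5160 lower against Cxcl5-/-, 2963 and 2868 against Hif1aOE Cxcl5-/-, and 4946 and 3061 against WT. It changed no call against Cxcl5-/- among the named genes that were checked. Calls of single genes against Hif1aOE Cxcl5-/- and WT were not checked in the alternatives. DESeq2 gave 6604 and 5450 against Cxcl5-/-. Of 144 named genes over 15 alternatives, in the comparison with Cxcl5-/- only, no direction turned where the main fit or the alternative called the gene. Sign changes of values that neither fit called were not counted. In all, 7 values lost the call and 4 gained one, and the genes concerned are Acsl4, Ccn1, Eif4g2, H2ac18, Itga6, Max, mt-Nd3 and Pdgfra. The 2 Cxcl5-/- libraries limit every comparison with that group, and a gene with 3 counts or fewer in a group has only a bound on its fold.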
